A study of Mus musculus with 21 samples.

Results

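Interferon-gamma-inducible GTPases and the transcription factor Irf1 were followed through sorted mouse heart macrophages and spleen monocytes. The 9 genes were Gbp2, Gbp3, Gbp5, Gbp7, Irgm1, Irgm2, Igtp, Iigp1 and Irf1, matched by symbol through their Entrez gene IDs, out of 27179 gene IDs in the count table. All 9 passed the filter on low counts and were among the 13275 genes tested. RNA-seq was available for 21 libraries from C57BL/6 mice, in 7 groups of 3. Macrophages were taken from the hearts of 3 separate naive pools and 3 separate pools challenged with CAWS, the Candida albicans water-soluble complex used to model Kawasaki disease. Of the sorted populations, R1 and R2 lacked Ccr2, with low MHC-II on R1 and high MHC-II on R2, while R3 carried Ccr2 together with high MHC-II. The seventh group was Ccr2-positive splenic monocytes from 3 pools of naive mice, and no group of monocytes from CAWS mice was analysed here. The sources used here do not give the number, age and sex of the mice in a pool or the dose and time of CAWS.

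Interferon-gamma, a cytokine made mainly by NK and T cells, binds the receptor chains Ifngr1 and Ifngr2 on macrophages and activates the kinases Jak1 and Jak2. The signal acts through gamma-activated sites in promoters, among them that of Irf1, whose product binds interferon-stimulated response elements and extends the response. The guanylate-binding proteins (GBPs) and the immunity-related GTPases (IRGs) are large families of GTPases induced in this way that assemble on vacuoles holding microbes and on microbes in the cytosol. Among the IRGs, Irgm1, Irgm2 and Igtp are regulators that sit on the cell's own membranes and keep effectors such as Iigp1 from loading there. Type I interferons induce many of the same genes.

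The 4 GBP genes lay in a cluster of 141075 bases on chromosome 3, and Irgm1, Irgm2, Igtp and Irf1 lay on chromosome 11 (RefSeq, build GRCm38.p6). Gbp5 (gene ID 229898) spanned chr3:142496934-142522344, Gbp7 (229900) chr3:142530336-142550151, Gbp3 (55932) chr3:142560016-142573213 and Gbp2 (14469) chr3:142620663-142638008, all on the plus strand. Another family member, Gbp2b, lay between Gbp3 and Gbp2. Irgm1 (15944) spanned chr11:48865245-48871420 on the minus strand, Irf1 (16362) chr11:53770014-53778374, Igtp (16145) chr11:58199556-58207592 and Irgm2 (54396) chr11:58214977-58222783, the last 3 on the plus strand. Igtp and Irgm2 were neighbours, 7384 bases apart in RefSeq, but their GENCODE models overlap on the same strand. In GENCODE, Gbp7 also overlaps the processed pseudogene Gm43802, and Irf1 overlaps Gm17334 on the opposite strand. The annotation behind the authors' counts is not given in the sources used here. Overlapping models or near-identical copies could affect the counts of Irgm2, Igtp, Gbp7 and Irf1, and of Gbp2 beside Gbp2b. Whether they did was not tested.

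Promoters are shown for 2 GBPs and the factor that rose after CAWS (Gbp2, Gbp5 and Irf1), for a GBP that did not pass the test (Gbp7) and for the neighbouring IRG pair. Each line gives the 110 bases before the RefSeq start, 5′ to 3′ on the gene's own strand, with capitals marking matches to the gamma-activated site TTCNNNGAA, the interferon-stimulated response element (GAAA, any 2 bases, GAAA) or the NF-kB consensus, searched on both strands.
Gbp2, chr3:142620553-142620662, plus strand: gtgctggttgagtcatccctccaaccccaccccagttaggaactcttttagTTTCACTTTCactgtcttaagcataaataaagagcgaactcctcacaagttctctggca
Gbp5, chr3:142496824-142496933, plus strand: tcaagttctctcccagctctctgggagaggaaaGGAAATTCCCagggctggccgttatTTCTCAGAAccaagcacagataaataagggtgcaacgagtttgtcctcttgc
Gbp7, chr3:142530226-142530335, plus strand: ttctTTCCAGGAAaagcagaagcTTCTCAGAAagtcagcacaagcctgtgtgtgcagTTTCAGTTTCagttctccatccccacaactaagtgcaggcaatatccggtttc
Irgm2, chr11:58214867-58214976, plus strand: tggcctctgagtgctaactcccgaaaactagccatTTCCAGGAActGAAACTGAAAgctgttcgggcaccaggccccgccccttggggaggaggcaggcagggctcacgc
Igtp, chr11:58199446-58199555, plus strand: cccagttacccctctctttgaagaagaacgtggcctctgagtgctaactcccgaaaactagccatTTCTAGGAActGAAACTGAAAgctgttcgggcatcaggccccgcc
Irf1, chr11:53769904-53770013, plus strand: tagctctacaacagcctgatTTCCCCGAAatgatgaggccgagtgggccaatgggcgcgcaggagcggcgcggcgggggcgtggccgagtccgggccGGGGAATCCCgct

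In windows from 250 bases before to 50 after the start, the interferon-stimulated response element was matched in 7 of the 8 members with a promoter entry, against 3.44% of 32851 RefSeq promoter windows of that length. A member counted as matched if any of its starts matched, while the shares are over single windows. Gbp3 and Irf1 had 2 starts each, and their matches all lay at the first. The gamma-activated site was matched in 5 of 8 (Gbp5, Gbp7, Irgm2, Igtp and Irf1), against 8.3% of windows, and the NF-kB consensus in 3 of 8 (Gbp2, Gbp5 and Irf1), against 8.46%. Irf1 was the member without a response element match, and its gamma-activated site began 90 bases before the start. Gbp7, whose level did not pass the test in any CAWS comparison, held 2 gamma-activated sites and 1 response element. In Gbp3 and in Irgm1, 2 response element matches overlapped each other. Irgm2 and Igtp each held a gamma-activated site followed closely by a response element, and their windows were 73.5% identical in a global alignment. A match describes letters in the window and is not evidence of binding.

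Totals ran from 12800136 to 23006155 counts per library, and members held between 19 counts (Iigp1 in a monocyte library) and 3055 counts (Gbp2). The labels were checked with the genes behind the sort. Ccr2 averaged 6.58 and 29.3 CPM (the count relative to the TMM-adjusted size of its library) in naive R1 and R2 but 2390 in naive R3 and 3260 in monocytes, and H2-Ab1, an MHC class II chain, averaged 605 CPM in naive R1 against 10600 in naive R2 and 12300 in naive R3. In CAWS R1, R2 and R3 Ccr2 averaged 80.5, 231 and 3670 CPM and H2-Ab1 1300, 8680 and 10300 CPM; against naive, Ccr2 was higher in R1 (log2 fold change 3.62) and R2 (2.97) and H2-Ab1 in R1 (1.10). Adgre1, the macrophage antigen F4/80, averaged 1710 to 2620 CPM in the macrophage groups and 579 in monocytes. Among naive R3 libraries, replicate 2 stood apart by endothelial and fibroblast genes, which summed to 221 CPM there against 24.7 and 28.5 in the other two. Bulk values such as these cannot tell fewer expressing cells from less RNA per cell.

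Relative to gene length (RPKM, CPM per kilobase), Gbp2 stood mid-way among the 9 genes in naive macrophages and highest in CAWS macrophages. In naive R1 the highest level was that of Irgm1 at 31.9 ± 8.29 RPKM (SD, n = 3), and Gbp2 held position 6 at 16.8 ± 1.51 RPKM. It also held position 6 in naive R2 and position 5 in naive R3. In every CAWS group Gbp2 had the highest mean RPKM of the 9, with 45.2 ± 11.5 in R1, 61.3 ± 14.7 in R2 and 64.6 ± 9.48 in R3. Gbp5 was the lowest in the 3 naive macrophage groups, between 5.63 and 6.76 RPKM. In monocytes the order ran from Irgm1 at 59.9 ± 4.07 RPKM down to Iigp1 at 0.431 RPKM (SD 0.1). These orders are descriptions without a test between genes.

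**Figure D1:**
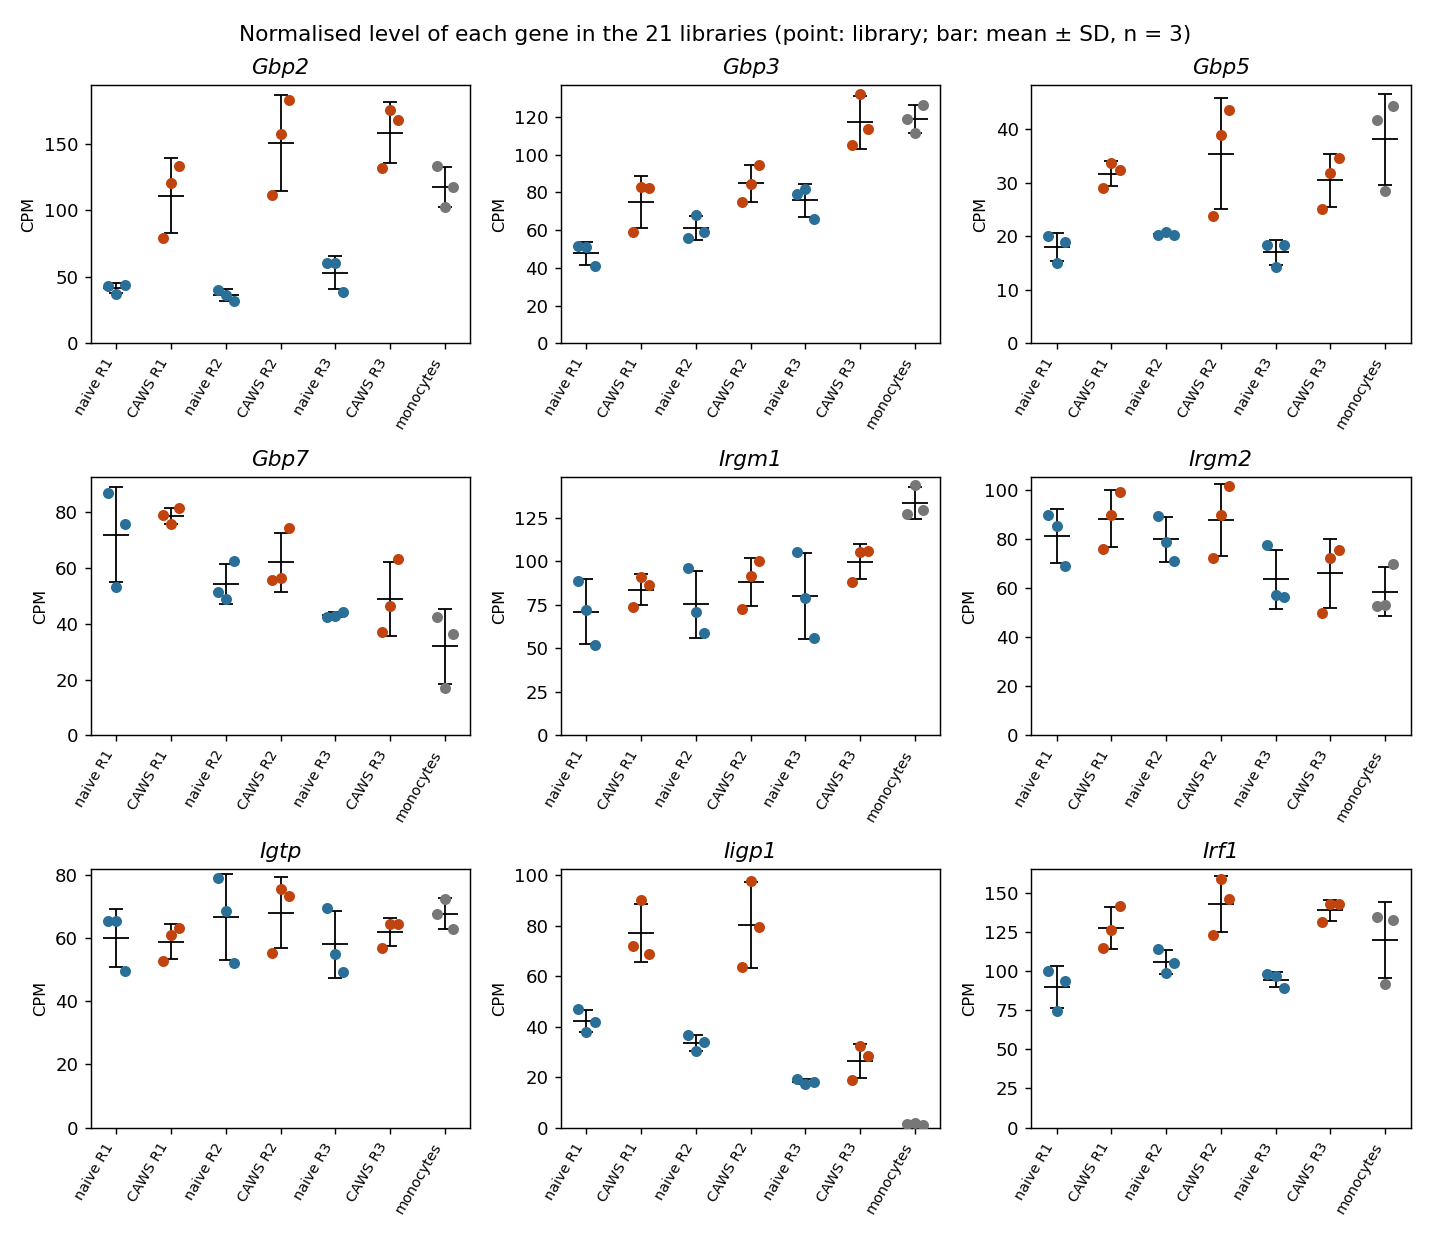
Normalised level (CPM, linear axis from 0) of each of the 9 genes in the 21 libraries, by group; points are libraries and bars are the mean ± SD of 3. Gbp2 lies between 31.5 and 60.2 CPM in naive macrophages and between 79.2 and 182.9 CPM in CAWS macrophages, while Iigp1 lies between 1.12 and 1.71 CPM in monocytes.

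After CAWS, 5 of the 9 genes were higher in each of the 3 macrophage populations, and they were the same 5: Gbp2, Gbp3, Gbp5, Iigp1 and Irf1. None was lower in any of the 3 comparisons. The populations of a treatment were read as sorted from the same pools, so these comparisons are not independent replications. Among all genes tested, 6.07% were called higher and 2.87% lower in R1, 6.79% and 3.5% in R2, and 6.7% and 8.29% in R3 (edgeR quasi-likelihood test, Benjamini-Hochberg adjusted p under 0.05). The median log2 fold change of the 9 was 0.51 in R1, 0.43 in R2 and 0.55 in R3, against 0.03, 0.02 and -0.06 over all genes tested. Every CAWS library lay above every naive library for 5, 5 and 4 members in R1, R2 and R3. The same held for 16.1%, 20.3% and 16.3% of all genes tested, and every CAWS library lay below for 12.4%, 16.2% and 18.5%. Adjusted p-values are from this edgeR fit unless another setting is named.

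Gbp2, which coats pathogen vacuoles and bacterial surfaces, had the largest fitted change of the 9 in each population. In R1 its 3 naive libraries held 43.2, 37.1 and 43.7 CPM, and the 3 CAWS libraries 79.2, 120.3 and 133.5 CPM. The groups did not overlap, and the log2 fold change was 1.43 ± 0.21 (SE), 2.69-fold, with an adjusted p of 0.000164. In R2 the values went from 40.2, 36.6 and 31.5 CPM to 111.8, 157.1 and 182.9 CPM, a log2 fold change of 2.06 ± 0.21, 4.18-fold (adjusted p = 1.24e-06). In R3 they went from 60.2, 60.2 and 38.7 CPM to 132, 175.3 and 168.3 CPM, a log2 fold change of 1.58 ± 0.20, 2.98-fold (adjusted p = 2.03e-05). Every CAWS library lay above every naive macrophage library, whatever the population. With any 1 library of a comparison left out, the log2 fold change stayed between 1.27 and 1.62 in R1, 1.90 and 2.24 in R2, and 1.40 and 1.69 in R3, and the largest adjusted p was 0.00247.

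Gbp5, which promotes assembly of the NLRP3 inflammasome, had the lowest level of the 4 GBP members in naive macrophages. Naive R1 libraries held 20.04, 15.02 and 18.83 CPM and CAWS R1 libraries 29.0, 33.6 and 32.4 CPM. In R2 the 3 naive libraries lay together at 20.2, 20.8 and 20.2 CPM, and the CAWS libraries spread over 23.8, 38.9 and 43.6 CPM. In R3 the values were 18.4, 14.3 and 18.3 CPM against 25.0, 31.7 and 34.7 CPM. Naive and CAWS libraries did not overlap in any population. The log2 fold changes were alike, 0.81 ± 0.20 in R1, 0.80 ± 0.19 in R2 and 0.85 ± 0.20 in R3, with adjusted p of 0.0118, 0.00951 and 0.00676. The call in R1 was lost without naive R1 replicate 2 (adjusted p = 0.0664), and that in R2 without CAWS R2 replicate 2 (0.055) or 3 (0.0671).

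Gbp3, a further GBP of the cluster, rose in each population. It went from 51.8, 50.8 and 40.7 CPM to 59.1, 83.0 and 82.5 CPM in R1, and from 56.0, 68.0 and 59.0 CPM to 75.2, 84.6 and 94.7 CPM in R2. In R3 it went from 79.4, 82.1 and 65.9 CPM to 105.3, 132.5 and 113.9 CPM. Its groups did not overlap within a population, but naive R3 overlapped CAWS R1 and CAWS R2. The log2 fold changes were 0.64 ± 0.14 (adjusted p = 0.00624), 0.48 ± 0.14 (0.0315) and 0.63 ± 0.14 (0.00378) in R1, R2 and R3. The call in R2 was lost without naive R2 replicate 1 (adjusted p = 0.134) or 3 (0.104) and without CAWS R2 replicate 2 (0.0879) or 3 (0.133). With CAWS replicate 2 left out of all populations at once, the calls in R1 (0.0566) and R3 (0.0509) were lost too. The R1 call was also lost without CAWS replicate 3 (0.0526) or naive replicate 3 (0.0508) of all populations.

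Gbp7, which has been tied to oxidative killing of microbes, did not pass the test in any population. CAWS R1 libraries held 79.0, 75.6 and 81.3 CPM, inside the naive R1 range of 53.3 to 86.7 CPM. In R2 the naive libraries ran from 48.7 to 62.4 CPM and the CAWS libraries from 55.6 to 74.2 CPM, and in R3 from 42.6 to 44.3 CPM and from 36.9 to 63.2 CPM. The log2 differences were 0.13, 0.19 and 0.18, with 95% intervals from -0.36 to 0.62 in R1, -0.30 to 0.69 in R2 and -0.33 to 0.69 in R3.

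Irf1, the transcription factor of the set, rose by a small amount in each population. Naive R1 held 100.3, 74.6 and 93.7 CPM and CAWS R1 114.8, 126.5 and 141.3 CPM. Naive R2 held 114.2, 98.8 and 104.8 CPM and CAWS R2 123.3, 158.8 and 146 CPM. Naive R3 held 97.8, 96.6 and 88.9 CPM and CAWS R3 131.2, 143 and 142.6 CPM. No pair of groups overlapped within a population, although the lowest CAWS R1 library was just above the highest naive R2 library. The log2 fold changes were 0.51 ± 0.14 (adjusted p = 0.0223), 0.43 ± 0.14 (0.0471) and 0.56 ± 0.14 (0.00863). In R1 the call was lost without naive R1 replicate 2 (adjusted p = 0.128), CAWS R1 replicate 2 (0.0597) or CAWS R1 replicate 3 (0.107). In R2 it was lost without naive R2 replicate 1 (0.073), 2 (0.169) or 3 (0.125), without CAWS R2 replicate 2 (0.211) or 3 (0.112), and when genes of low count were kept in the test (0.0653). In R3 no single library ended it, but leaving out CAWS replicate 2 (0.0558) or naive replicate 3 (0.061) of all populations at once did.

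Iigp1 (gene ID 60440, chromosome 18, 60373616 to 60392634), the effector IRG also called Irga6, rose in all 3 populations, with larger fitted changes in R1 and R2 than in R3. Naive R1 libraries held 46.9, 38.1 and 42.0 CPM and CAWS R1 libraries 72.0, 90.2 and 68.9 CPM, a log2 fold change of 0.86 ± 0.16 (adjusted p = 0.00186). Naive R2 libraries held 36.8, 30.4 and 33.8 CPM and CAWS R2 libraries 63.5, 97.6 and 79.7 CPM, a log2 fold change of 1.25 ± 0.16 (adjusted p = 2.5e-05). No library left out ended either call. R3 was lower throughout, with 19.2, 17.2 and 17.9 CPM in naive and 18.98, 32.18 and 28.17 CPM in CAWS libraries, so that CAWS replicate 1 lay within the naive range. The log2 fold change in R3 was 0.55 ± 0.18 (adjusted p = 0.0469). This call was lost without naive R3 replicate 1 (adjusted p = 0.0758), 2 (0.117) or 3 (0.105), without CAWS R3 replicate 2 (0.26, at a log2 fold change of 0.39) or 3 (0.111), and in a fit of these 2 groups alone (0.0631).

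The 3 regulatory IRGs did not pass the test in any CAWS comparison. Irgm1 ranged from 52.0 to 105.5 CPM over naive macrophage libraries and from 72.6 to 105.7 CPM over CAWS libraries, with log2 differences of 0.23, 0.23 and 0.31 in R1, R2 and R3. Irgm2 ranged from 56.4 to 89.7 CPM and from 49.9 to 101.5 CPM, with differences of 0.12, 0.14 and 0.05. Igtp, also known as Irgm3, ranged from 49.2 to 78.8 CPM and from 52.5 to 75.6 CPM, with differences of -0.03, 0.03 and 0.09. Together with Gbp7 these made 12 comparisons, with adjusted p from 0.339 to 0.943 and 95% intervals that lay between -0.36 and 0.75. Whether these 4 genes responded less than the other 5 was not tested.

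**Figure D2:**
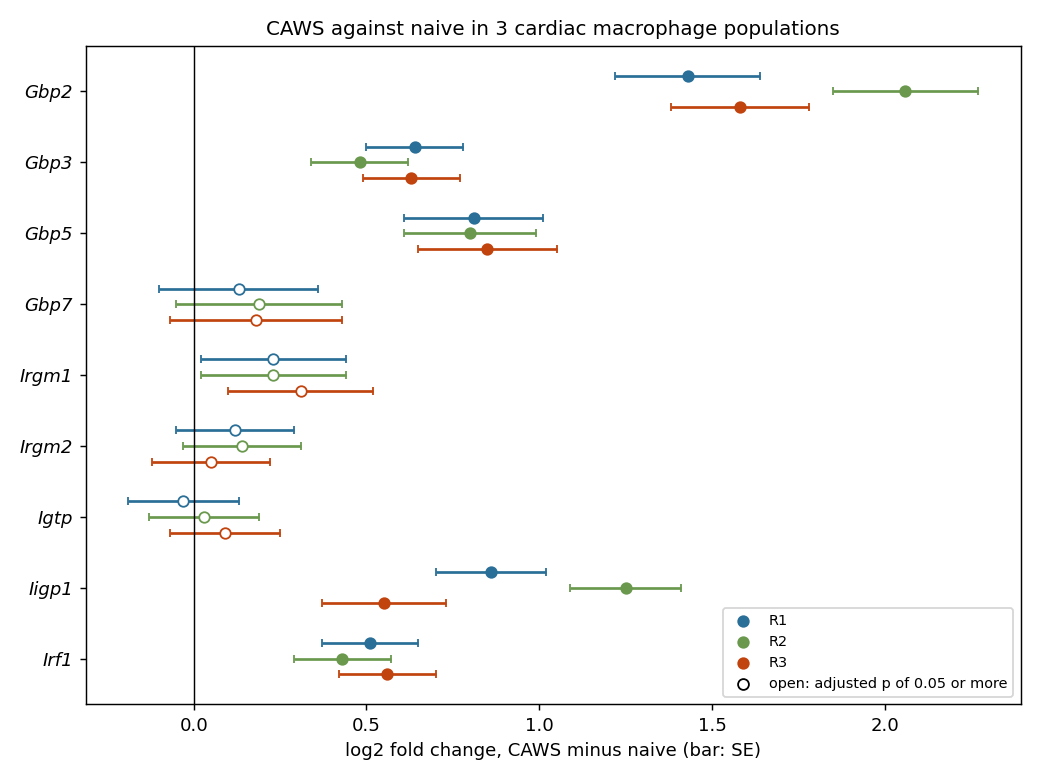
Log2 fold change of each gene, CAWS minus naive, in R1, R2 and R3 (bars: standard error of the fit; filled points: adjusted p under 0.05). Gbp2, Gbp3, Gbp5, Iigp1 and Irf1 are filled in all 3 populations, with Gbp2 in R2 the farthest right at 2.06, and Gbp7, Irgm1, Irgm2 and Igtp are open in all 3.

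The CAWS responses of the populations were set against each other by interaction terms. None of the 9 genes passed in any of the 3 interactions with edgeR or with DESeq2, where edgeR called 0.0527% of all genes for R2 against R1, 2.26% for R3 against R1 and 2.33% for R3 against R2. At an unadjusted p under 0.05 edgeR counted 1, 0 and 1 members. The response of Gbp2 was larger in R2 than in R1 by 0.64 ± 0.29 on the log2 scale (adjusted p = 0.929). That of Iigp1 was smaller in R3 than in R2 by 0.70 ± 0.25 (difference -0.70, adjusted p = 0.182). With the replicate number as a block within each treatment, the latter was -0.71 with an adjusted p of 0.0283. The 95% intervals of the 9 genes over the 3 interactions reached from -1.21 to 1.24 on the log2 scale.

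Markers of other cells moved with CAWS in the same libraries. Of 9 NK and cytotoxic genes, 6 were tested, and 4 were higher in R1, 2 in R2 and 1 in R3. Their summed level went from 0.993–2.34 CPM to 7.67–27.2 CPM in R1, from 2.64–3.66 to 10.8–25.3 CPM in R2 and from 15.7–21.3 to 31.1–41.6 CPM in R3. The defining NK receptor Ncr1 had no count in naive R1 and R3 but was counted in naive R2. It averaged 0.602 CPM in CAWS R1, 0.299 in CAWS R2 and 0.026 in CAWS R3. Of 8 T cell genes, 4 were tested, and 1, 0 and 1 were higher in R1, R2 and R3. That list summed to 44.1–45.8 CPM in naive and 45.6–56.9 CPM in CAWS R1, 38.7–47 and 55.5–59.6 CPM in R2, and 12.2–25.5 and 21.4–25.7 CPM in R3, most of it Cd4, and Cd3e was at or near 0 throughout. Dendritic cell genes were higher for 4 of 8 in R1 (sums of 8.75–10.9 against 20.3–52.1 CPM), for 6 of 8 in R2 (16.7–21.3 against 122–335 CPM) and for 0 of 8 in R3 (276–540 against 225–403 CPM). Monocyte genes were higher for 1 of 7 in R1 (sums of 5640–7100 CPM in naive against 3980–5100 in CAWS), 5 of 7 in R2 (2330–3040 against 2610–2670) and 2 of 7 in R3, where 1 was lower (4320–5480 against 5100–5590). Genes of resident cardiac macrophages were lower for 2 of 7 in R1 (13700–14400 against 8890–11200 CPM), 0 of 7 in R2 (7460–8430 against 6300–6420) and 7 of 7 in R3 (3880–6340 against 2190–2290). Of 4 MHC class II genes, 3 were higher in R1 (3260–5520 against 6660–11200 CPM) and none was called in R2 (65100–76000 against 49700–66300) or R3 (76300–91500 against 59500–82000). Heart muscle genes were higher for 2 of 7 in R1 (30.4–48.3 against 58.7–69.7 CPM) and 0 in R2 (71.3–98 against 74.6–120), and 1 was lower in R3 (75.8–98.1 against 41.9–62.7). Endothelial and fibroblast genes were higher for 1 of 8 in R1 (18.4–29.7 against 28.6–41.6 CPM) and 1 of 8 in R2 (16.4–19.7 against 29.2–36), and 2 were lower in R3 (24.7–221 against 30.8–45.7). No tested gene of the B cell or neutrophil lists was called in any of the 3. The part of these cells in the rise of the 5 genes was not tested. In CAWS R2, replicate 2 had the highest dendritic sum, and without it Gbp2 and Iigp1 still passed in R2, while Gbp3 (adjusted p = 0.0879), Gbp5 (0.055) and Irf1 (0.211) did not.

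Populations of naive hearts differed in 3 of the 9 genes. Of all genes, 23.2% differed between R3 and R1, 12.4% between R3 and R2 and 7.13% between R2 and R1. Members called numbered 3, 1 and 0 of 9 in these comparisons, near those shares. R3 held less Iigp1 than R1 (18.1 ± 0.989 against 42.3 ± 4.44 CPM, SD, n = 3), a log2 difference of -1.23 ± 0.18 (adjusted p = 1.86e-05), and less than R2 (33.7 ± 3.18 CPM), a difference of -0.90 (adjusted p = 0.00136). R3 held more Gbp3 than R1, 75.8 ± 8.67 against 47.8 ± 6.14 CPM, a log2 difference of 0.66 (adjusted p = 0.00137). Gbp7 was lower in R3 than in R1, 43.2 ± 0.975 against 71.9 ± 17 CPM, a difference of -0.74 (adjusted p = 0.0315), but naive R1 was spread widely. That call was lost without naive R1 replicate 1 (adjusted p = 0.111) or 3 (0.0842), without naive R3 replicate 1 (0.0839), 2 (0.0846) or 3 (0.0622), and with low-count genes kept (0.0555). Between R2 and R1 no member passed. With the pool as a block, Irgm2 also passed for R3 against R1 (-0.36, adjusted p = 0.0318) and Gbp2 for R3 against R2 (0.55, adjusted p = 0.0147). Gbp2 passed for R3 against R2 without the block too, in a fit of those groups alone (0.56, adjusted p = 0.0439) and without naive R3 replicate 3 (0.74, 0.0215).

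Within CAWS hearts the same 3 genes differed between R3 and R1. Iigp1 averaged 26.4 ± 6.76 CPM in R3 against 77 ± 11.5 in R1 and 80.3 ± 17 in R2, log2 differences of -1.54 (adjusted p = 4.88e-07) and -1.60 (adjusted p = 6.14e-07). No CAWS R3 library overlapped either group. Gbp3 averaged 117 ± 13.9 CPM in R3, above R1 by 0.65 (adjusted p = 0.00111) and above R2 by 0.47 (adjusted p = 0.0242), the latter lost without CAWS R2 replicate 1 (0.113) or 2 (0.067) or CAWS R3 replicate 2 (0.148). Gbp7 was lower in R3 than in R1 by 0.69 on the log2 scale (difference -0.69, adjusted p = 0.037). That call was lost without CAWS R1 replicate 1 (adjusted p = 0.081), 2 (0.0581) or 3 (0.0884), without CAWS R3 replicate 1 (0.169) or 2 (0.11), and with low-count genes kept (0.089). The share of all genes called was 29.4% for R3 against R1, 15.3% for R3 against R2 and 3.77% for R2 against R1, where no member passed. With the pool as a block 6 members passed for R3 against R1, the added ones being Gbp2 (0.54, adjusted p = 0.00546), Irgm1 (0.25, 0.0455) and Irgm2 (-0.43, 0.00899), and Irgm2 passed for R3 against R2 (-0.42, 0.0194). Without the block, Gbp2 missed the threshold for R3 against R1 (adjusted p = 0.0548) but passed with DESeq2 (0.0319), RLE size factors (0.0419), a minimum count of 50 (0.038) and a fit of those groups alone (0.0499), and without CAWS R1 replicate 3 (0.0296) or CAWS R3 replicate 1 (0.0398). Irgm2 passed for R3 against R1 without CAWS R3 replicate 3 (-0.53, adjusted p = 0.0454). The comparisons between populations and those between treatments share libraries and are not independent.

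Splenic monocytes held almost no Iigp1. The 3 libraries had 1.22, 1.71 and 1.12 CPM, and the naive macrophage groups were higher by 4.98 ± 0.26 (R1), 4.65 ± 0.26 (R2) and 3.75 ± 0.28 (R3) on the log2 scale, which is 31.6-, 25.1- and 13.5-fold (largest adjusted p = 1.45e-10). Gbp2, Gbp3, Gbp5 and Irgm1 had the opposite direction and were higher in monocytes than in each naive macrophage population. For Gbp2 the monocytes held 133, 103 and 117 CPM, and the log2 differences, macrophages minus monocytes, were -1.51, -1.71 and -1.15. Gbp3 gave -1.31, -0.97 and -0.65, Gbp5 -1.09, -0.91 and -1.17, and Irgm1 -0.90, -0.83 and -0.73, with a largest adjusted p of 0.00534. The monocyte range of Gbp2 lay within that of the CAWS macrophages, 79.2 to 182.9 CPM.

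Of the remaining genes, Gbp7, Irgm2 and Irf1 passed against monocytes in 2 of the 3 populations each and Igtp in none. Gbp7, with 42.4, 16.9 and 36.3 CPM in monocytes, was higher in naive R1 by 1.17 ± 0.25 (adjusted p = 0.000348) and in R2 by 0.76 ± 0.25 (0.0108), the latter lost without monocyte replicate 2 (0.0504) and in a fit of these groups alone (0.0542). Irgm2 was higher in R1 by 0.47 (adjusted p = 0.0219) and in R2 by 0.44 (0.0294). The Irgm2 calls were lost without monocyte replicate 1 (0.0845 in R1, 0.117 in R2) or 2 (0.0805, 0.102), or without replicate 1 (0.0863, 0.121) or 2 (0.0624, 0.0535) of the macrophage group. Gbp7 and Irgm2 in R3 did not pass, at 0.43 and 0.12, but Gbp7 passed there without monocyte replicate 1 (0.66, adjusted p = 0.0312). Irf1 was lower in R1 (-0.42, adjusted p = 0.0117) and R3 (-0.34, 0.0379) than in monocytes, whose libraries ran from 91.5 to 135 CPM, and did not pass in R2 (-0.18, adjusted p = 0.271), where it passed without monocyte replicate 2 (-0.33, adjusted p = 0.0182). Between the naive populations themselves no difference of Irf1 or Irgm2 was called without the pool block. The R1 call was lost without naive R1 replicate 2 (0.0826) or monocyte replicate 3 (0.0555), and the R3 call without naive R3 replicate 1 (0.0569), 2 (0.0628) or 3 (0.114) or monocyte replicate 1 (0.106) or 3 (0.142). In fits of the compared groups alone they were 0.0959 and 0.143. Members called higher and lower numbered 3 and 5 in R1, 3 and 4 in R2, and 1 and 5 in R3, where 32.5% and 30.8%, 33.1% and 30.5%, and 31.9% and 27.1% of all genes were called. These 3 comparisons share the monocyte libraries, and tissue and cell type cannot be told apart.

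**Figure D3:**
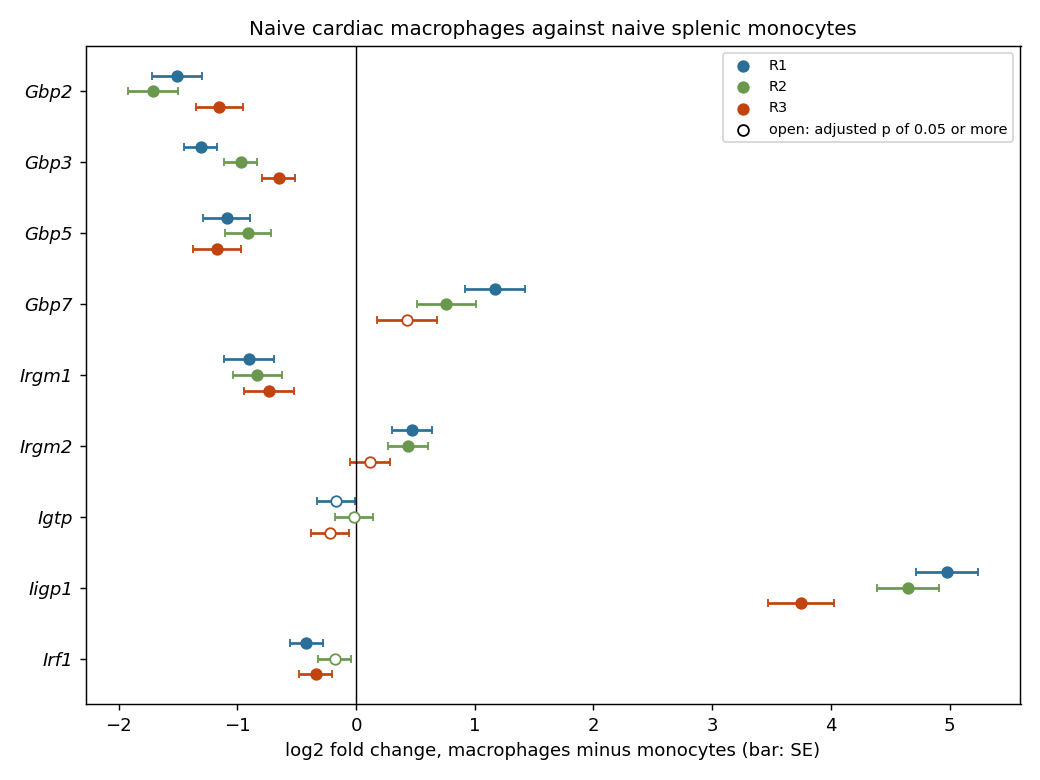
Log2 fold change of each gene, naive macrophages minus naive splenic monocytes, for R1, R2 and R3 (bars: standard error; filled points: adjusted p under 0.05). Iigp1 lies at 3.75 to 4.98, Gbp2, Gbp3, Gbp5 and Irgm1 lie below 0 in all 3 populations, and Igtp is open in all 3.

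Across the 7 groups the order of the means differed from gene to gene. For Gbp2 it ran from CAWS R3 (159 ± 23.3 CPM) through CAWS R2, monocytes and CAWS R1 to naive R3, R1 and R2 (36.1 ± 4.35 CPM), and the 1 gap between neighbours without overlap was that between CAWS R1 and naive R3. For Iigp1 it ran from CAWS R2 and R1 through naive R1 and R2 to CAWS R3, naive R3 and monocytes, with gaps below CAWS R1, below naive R1 and below naive R3. For Irgm1 the monocytes (133 ± 9.06 CPM) stood clear of the macrophage groups, which overlapped one another down to naive R1 (71.1 ± 18.5 CPM). For Irgm2 and Igtp every group overlapped its neighbour, over a range of means from 58.6 to 88.3 CPM and from 57.9 to 67.9 CPM. Gbp5, Gbp3 and Gbp7 had 2, 2 and 1 gaps, and Irf1 had 1, between naive R2 (106 ± 7.72 CPM) and naive R3 (94.4 ± 4.85 CPM). That gap lay between libraries of 98.8 and 97.8 CPM, and the difference did not pass with edgeR (adjusted p = 0.496). Of all genes tested, 16.7% lay wholly above and 16.5% wholly below in naive R3 against naive R2. The gaps are descriptions without a test.

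Libraries with the same replicate number within a treatment moved together for several of the 9 genes. This was not particular to them: over 9892 genes, deviations of such libraries correlated at 0.12 to 0.53. Naive replicate 1 was the highest of the 3 in every population for Irgm1, Irgm2, Iigp1 and Irf1, and naive replicate 3 was the lowest in every population for Irgm1, Irgm2 and Igtp. Irgm1, for example, held 88.9, 96.05 and 105.5 CPM in replicate 1 of naive R1, R2 and R3 and 52.0, 58.6 and 56.05 CPM in replicate 3. In CAWS hearts replicate 1 was the lowest of the 3 in every population for 7 of the 9 genes, all but Gbp7 and Iigp1. Over all genes tested, naive replicate 1 was highest throughout for 5.62%, naive replicate 3 lowest for 5.76% and CAWS replicate 1 lowest for 9.07%. A list of 20 type I interferon-stimulated genes summed to 1180, 1280 and 1380 CPM in replicate 1 of naive R1, R2 and R3, against 653 to 781 CPM in the other naive macrophage libraries. None of those 20 passed in any CAWS comparison with edgeR. With naive replicate 1 left out of all 3 populations, the differences of Irgm1 between CAWS and naive were 0.43, 0.45 and 0.56, with a smallest adjusted p of 0.0561. Naive replicate 1 was the highest for Irgm1 in every population, so leaving it out had to raise these differences. The same edgeR setting ended the calls of Gbp3 (adjusted p = 0.159), Gbp5 (0.055) and Irf1 (0.088) in R2 and of Iigp1 (0.0943) in R3. Leaving out CAWS replicate 2 of all 3 populations ended more calls. These were Gbp3 (edgeR adjusted p = 0.0566, 0.101 and 0.0509) and Irf1 (0.0845, 0.273 and 0.0558) in R1, R2 and R3. Gbp5 in R1 (0.0733) and R2 (0.0843) and Iigp1 in R3 (0.217) were lost as well. No pool left out ended a CAWS call of Gbp2.

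**Figure D4:**
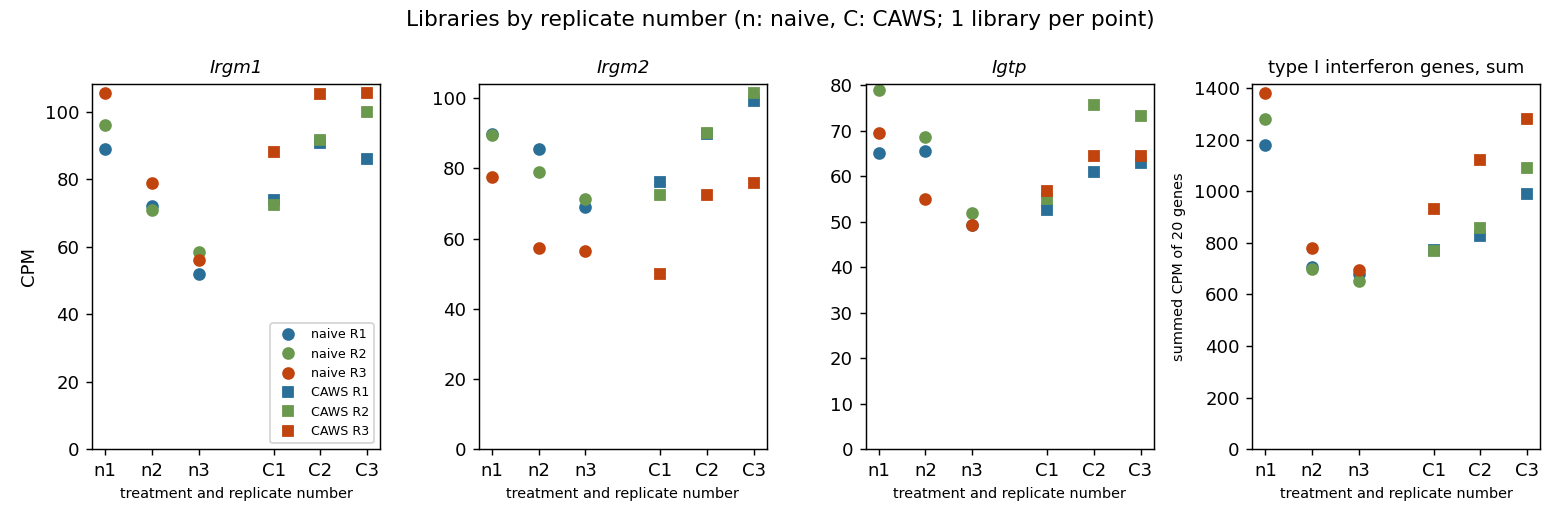
Levels by treatment and replicate number (n1 to n3: naive; C1 to C3: CAWS) of Irgm1, Irgm2 and Igtp in CPM, and the summed CPM of 20 type I interferon-stimulated genes; each point is 1 library, coloured by population. Replicate 1 of the naive mice is high in all 3 populations for Irgm1 and for the summed type I genes. Replicate 1 of the CAWS mice is the lowest CAWS library within each population for Irgm1, Irgm2 and Igtp.

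The rest of the pathway was read from fixed lists. Beside the list counts that follow, 6.07%, 6.79% and 6.7% of all genes tested were called higher in R1, R2 and R3. Ifng itself had no count in any macrophage library and at most 1 count in a monocyte library. Its receptor chains were plentiful and did not pass in any CAWS comparison: Ifngr1 averaged 555 to 708 CPM in naive and 606 to 845 CPM in CAWS macrophages, and Ifngr2 137 to 203 and 167 to 198 CPM. Of 11 receptor and signalling genes tested, 1, 3 and 2 were higher in R1, R2 and R3 and none was lower (median 0.19, 0.06 and 0.20), among them the phosphatase Ptpn6 in all 3 (0.34, 0.25 and 0.27). Jak2 (0.41) and the feedback inhibitor Socs3 (0.57) passed in R2, and Socs1, another inhibitor, passed in R3 (1.05, adjusted p = 0.0425).

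The other members of the 2 GTPase families were mostly below the threshold. Of 18 tested, 2, 4 and 1 were higher in R1, R2 and R3 and none was lower, with medians of 0.06, 0.29 and 0.12. Gbp2b, the neighbour of Gbp2, was scarce and rose in R2 from 2.16 ± 0.311 to 9.17 ± 3.97 CPM (log2 fold change 2.11 ± 0.38, adjusted p = 0.000655). Tgtp2, an effector IRG, rose in R1 (0.85, adjusted p = 0.0362) and R2 (0.98, 0.011). Gbp6 rose in R1 (1.28, adjusted p = 0.016) and R3 (0.97, 0.0473), and Gbp4 in R2 (1.64, 0.00748). Of 26 other interferon-gamma-induced genes tested, 11, 12 and 12 were higher and none lower, with medians of 0.70, 0.55 and 0.39. Among them were the chemokine Cxcl9 (log2 fold changes of 1.78, 2.64 and 2.30) and the class I chain H2-D1 (0.70, 0.57 and 0.28) in all 3 populations, and the class II regulator Ciita in R1 (1.41, adjusted p = 6.07e-05) but not in R2 (0.40, 0.145) or R3 (0.09, 0.748). For Ciita the response in R3 was smaller than that in R1 (interaction -1.31, adjusted p = 0.0036), and the one in R2 did not differ from R1 past the threshold (-1.01, adjusted p = 0.2).

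Genes whose pattern over the 21 libraries was most like that of a member were taken from 9520 candidates by Pearson correlation of log2 CPM, as a description. The libraries share pools and groups, so the points are not independent. Gbp2 was most like Il1rn (r = 0.930), the interleukin-1 receptor antagonist, and Gbp5 most like Cd274 (0.901), the checkpoint ligand PD-L1. Iigp1 was most like Mexis (0.981), with Adgre1 the third (0.976). Irgm1 was most like Irf7 (0.922), and Ifi47 (0.908), a further IRG, was also among its 3 nearest. Igtp was most like Ifit3b (0.764), and Irgm2 most like Susd6 (0.872). Irf1 had 2 members among its 3 nearest genes, Gbp5 (0.839) and Gbp2 (0.837), after Zfand3 (0.881). Gbp3 and Gbp7 were most like Gk (0.947) and Eea1 (0.948). Among the 9 genes themselves the lowest correlations were those of Iigp1 with Irgm1 (-0.56) and with Gbp3 (-0.51). Monocytes had the lowest mean of Iigp1 (1.35 CPM) and the highest means of Irgm1 (133 CPM) and Gbp3 (119 CPM). Correlations within macrophages alone were not tested.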

How the data were processed

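The authors deposited raw read counts for each gene (featureCounts, mm10, per the submitters' processing notes) beside gene length, per the file headers. The sources used here do not give the aligner, annotation release or strand setting. Per the labels' protocols, RNA came from the RNeasyPlus Mini kit and cDNA libraries from the TruSeq RNA kit. Per-sample and combined files agreed for 21 of 21 libraries. Symbols, positions and promoters came from RefSeq (GRCm38.p6), which matched 25275 of 27179 IDs; protein sequences were not analysed here.

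Genes kept by filterByExpr (minimum count 10, minimum total 15) were fitted together over 7 groups with edgeR 4.0.16 (R 4.3.3; TMM factors from 0.909 to 1.065; robust quasi-likelihood; 14 residual degrees of freedom), with 15 two-sided comparisons, each adjusted by Benjamini-Hochberg over 13275 genes and called under 0.05. Levels are CPM on TMM-adjusted sizes; RPKM used the deposited lengths. Counting precision is limited by totals of 12800136 to 23006155 per library, with a median of 16763449. No replicates differed by as little as sampling noise (chi-square per degree of freedom at least 10.2). The script was tested on simulated data.

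All 9 members were followed. Of each pathway list, up to 4 genes with the smallest p among those passing a CAWS comparison could be named, with Ifng, Ifngr1 and Ifngr2 always; 1 gene that the rule names is not reported here. For each member the 3 nearest genes were taken among those with a symbol that averaged 2 or more in log2 CPM (prior count of 2). Members and lists were chosen with earlier results of these data known. Same-numbered libraries deviated together within a treatment (18 of 18 correlations over 0.1, from 0.12 to 0.53, over 9892 genes). Across treatments 4 of 27 were over 0.1 (from -0.19 to 0.19). With monocytes 6 of 9 were over 0.1 for naive macrophages (-0.09 to 0.28) and 6 of 9 for CAWS macrophages (-0.10 to 0.59). CAWS hearts and naive spleens came from different mice, so such correlations do not establish a shared pool. The number was read as a pool within a treatment because the series design describes it so. Alternatives were DESeq2 1.42.0, RLE size factors, no filter, a minimum count of 50, only the groups compared, the replicate block, each library left out and, added after seeing the data, each pool left out.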

Additional observations from a re-analysis of the deposited data

How the results depend on the processing

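No comparison of a member changed sign while called. Over the settings that keep all libraries, 791 of 810 values kept their side of the threshold, 7 calls were lost and 12 gained; with libraries or pools left out, 1436 of 1539 kept it, 96 were lost and 7 gained. The number of members called was 5 in each CAWS comparison and fell to between 3 and 5 in R1, 2 and 5 in R2 and 4 and 5 in R3 with 1 library left out, and to between 2 and 5 in each with 1 pool left out, where fewer samples enter the fit. Other ranges with 1 library left out were 2 to 4 for CAWS R3 against R1, 1 to 2 for CAWS R3 against R2, 2 to 3 for naive R3 against R1, 1 to 2 for naive R3 against R2, and 6 to 8, 6 to 7 and 5 to 6 for naive R1, R2 and R3 against monocytes.

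With the replicate block, read as a pool within a treatment, the members called were 6 for CAWS R3 against R1 (3 without it, and 4 with DESeq2, RLE size factors, a minimum count of 50 or only those groups), 2 for naive R3 against R2 (1 without it, and 2 in a fit of those groups alone), and 1 for the response of R3 against that of R2 (0 without it); 3 were called for CAWS R3 against R2 and 4 for naive R3 against R1. The pool block changed no count in the other 4 of the 9 comparisons it was run on. For CAWS against naive and macrophages against monocytes the block was the plain replicate number, which the labels do not tie to shared mice. It changed no call of a member there.

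Over all genes, the response of R2 against that of R1 called 7 genes, and 57 with DESeq2, 14 without the filter, 32 in a fit of the compared groups and 15 with the replicate block; that of R3 against R1 called 300, and 479 with DESeq2. Fits of only the compared groups called 774 in place of 501 genes for CAWS R2 against R1, 2718 in place of 1365 for CAWS against naive R2, and 1516 in place of 946 for naive R2 against R1. The cause was not tested. With 1 library left out, the calls ran from 681 to 917 for CAWS against naive in R1, 732 to 1030 in R2 and 988 to 1914 in R3; from 1 to 12, 181 to 298 and 192 to 316 for the responses of R2 against R1, R3 against R1 and R3 against R2; from 591 to 801, 2406 to 2987 and 1062 to 1616 for naive R2 against R1, R3 against R1 and R3 against R2; from 230 to 444, 2829 to 3769 and 1276 to 1932 for the same pairs in CAWS; and from 7897 to 8131, 7729 to 8117 and 7233 to 7559 for naive R1, R2 and R3 against monocytes. With 1 pool left out, the corresponding ranges were 472 to 769, 605 to 926 and 856 to 1622; 0 to 3, 143 to 252 and 141 to 231; 492 to 542, 1927 to 2391 and 685 to 1132; 147 to 194, 2093 to 2879 and 971 to 1101; and 7793 to 7961, 7723 to 7974 and 7071 to 7286.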

Other observations

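Among the proteins that work with these GTPases at vacuoles and in sensing of cytosolic lipopolysaccharide, Casp4, the caspase that binds lipopolysaccharide, was higher after CAWS in all 3 populations. It went from 15.6 ± 4.22 to 29.1 ± 1.61 CPM in R1 (SD, n = 3; log2 fold change 0.89 ± 0.20, edgeR adjusted p = 0.00699), from 15.2 ± 1.88 to 25 ± 4.27 CPM in R2 (0.71, adjusted p = 0.0249) and from 14.7 ± 1.21 to 24.2 ± 0.725 CPM in R3 (0.72, adjusted p = 0.0218). Its substrate Gsdmd, which forms membrane pores, passed in R3 (0.48, adjusted p = 0.0145) and not in R1 (0.32, 0.135) or R2 (0.26, 0.217). Gabarap, an autophagy protein that IRG and GBP loading depends on, likewise passed in R3 (0.43, 0.0219). Of the 16 genes of that list 1, 1 and 3 were higher in R1, R2 and R3 and none was lower, at medians of 0.11, 0.16 and 0.14. Among all genes tested 6.07%, 6.79% and 6.7% were called higher, so the counts in R1 and R2 are near those shares.

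Of 10 other interferon regulatory factors tested, 1 was higher in R1 and 1 lower in R3, where 6.07% and 8.29% of all genes were so called. Irf8, a lineage factor of monocytes and dendritic cells, rose in R1 from 187 ± 28 to 261 ± 25.5 CPM (0.48 ± 0.13, edgeR adjusted p = 0.0181). Irf4 fell in R3 from 111 ± 10.3 to 78.7 ± 4.65 CPM (log2 fold change -0.50 ± 0.12, adjusted p = 0.00676). Of 4 cytokine genes tested out of 7 that bear on interferon-gamma release, Ebi3, a subunit of interleukin-27, rose in all 3 populations (0.98, 0.59 and 0.41; largest adjusted p = 0.0144). Acod1, the itaconate-producing enzyme, was at or near 0 in naive macrophages and averaged 3.9, 7.24 and 3.41 CPM in CAWS R1, R2 and R3.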
